A study of Mus musculus with 28 samples.

Results

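B cells and the plasma cells they give rise to were followed in mouse liver tumours through 9 transcripts, Cd79a, Cd79b, Ms4a1, Pax5, Cd22, Blk, Cr2, Jchain and Mzb1, chosen by symbol out of the 18182 genes of the deposited table. RNA was sequenced from hepatocellular carcinoma tissue and peritumour tissue of mice whose genotype label is c-Myc/Alb-cre transgenic. All groups share this genotype, a c-Myc transgene with a Cre recombinase under the albumin promoter, which is active in hepatocytes. No liver without the transgene was analysed here, and the labels give neither age nor treatment. The titles name 4 groups, Tu_F and Pe_F with 11 libraries each and Tu_M and Pe_M with 3 each, where Tu is tumour and Pe is peritumour. The labels do not expand F and M. Tumour and peritumour libraries carry matching codes in their titles, read here as marks of the animal, so that there are 14 pairs. The libraries held 14777567 to 17576921 estimated counts, rounded here and called reads.

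A B cell senses antigen through a membrane immunoglobulin whose signal passes inside the cell along the paired chains Cd79a and Cd79b. Pax5 is the transcription factor that holds cells in the B lineage, and it is shut off when a B cell becomes a plasma cell. Plasma cells secrete antibody, and Jchain is the small protein that links immunoglobulin M and immunoglobulin A into polymers, the forms that the receptor Pigr carries across epithelia. The liver makes B cells before birth; in the adult it holds few B cells beside its hepatocytes and Kupffer cells. Of 12 immunoglobulin genes looked for by symbol 0 were in the deposited table, so immunoglobulin genes could not be analysed here.

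The 9 transcripts were scarce. Per transcript length, as deposited TPM (transcripts per 1000000), Jchain was the highest with a mean level of 8.95 ± 8.07 (SD, n = 28 libraries). Cd22, an inhibitory receptor of B cells, had a mean TPM of 2.00 ± 0.788. Cd79b, Mzb1 and Cd79a had mean TPM of 1.71 ± 1.06, 1.70 ± 0.900 and 1.54 ± 1.29. Ms4a1, Blk, Cr2 and Pax5 lay between mean TPM of 0.264 ± 0.307 and 0.136 ± 0.124, and neighbours in this order from Cd22 downwards to Cd79a, and again from Ms4a1 to Pax5, lay closer together than their SDs. Ms4a1 (the CD20 protein), Blk (a Src family kinase that acts behind the B cell receptor) and Pax5 had too few reads for the expression filter, so 6 of 9 were tested. The hepatocyte marker Alb was abundant in both tissues, with a mean of 19300 ± 7020 CPM (counts per 1000000, SD, n = 14) in tumour and 26500 ± 8690 in peritumour tissue.

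RefSeq promoter windows on GRCm38.p6, 250 bases before to 50 bases after a start site, were matched for 5 of the 9 genes, namely Cd79a, Pax5, Cd22, Cr2 and Jchain. The windows of the 3 genes that stand for the patterns described below are printed 5′ to 3′, together with that of Cd22, which held a motif match. Cd79a varied together with Cd79b in peritumour tissue, Cr2 had the largest fold change between the tissues, and Jchain ranged widely between tumours. Capitals mark the match.
Cd79a, chr7:24897247-24897546, plus strand: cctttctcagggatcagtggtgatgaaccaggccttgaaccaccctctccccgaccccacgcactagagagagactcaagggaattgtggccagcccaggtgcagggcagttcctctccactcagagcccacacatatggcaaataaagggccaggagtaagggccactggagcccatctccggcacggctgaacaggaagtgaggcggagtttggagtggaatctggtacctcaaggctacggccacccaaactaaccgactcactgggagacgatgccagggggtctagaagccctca
Cr2, chr1:195176670-195176969, minus strand: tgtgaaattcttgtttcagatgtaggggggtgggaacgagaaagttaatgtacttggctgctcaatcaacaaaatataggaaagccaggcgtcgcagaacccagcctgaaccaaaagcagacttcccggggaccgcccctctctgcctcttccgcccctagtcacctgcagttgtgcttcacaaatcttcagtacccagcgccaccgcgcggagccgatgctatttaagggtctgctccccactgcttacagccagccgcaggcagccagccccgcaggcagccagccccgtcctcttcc
Jchain, chr5:88527848-88528147, minus strand: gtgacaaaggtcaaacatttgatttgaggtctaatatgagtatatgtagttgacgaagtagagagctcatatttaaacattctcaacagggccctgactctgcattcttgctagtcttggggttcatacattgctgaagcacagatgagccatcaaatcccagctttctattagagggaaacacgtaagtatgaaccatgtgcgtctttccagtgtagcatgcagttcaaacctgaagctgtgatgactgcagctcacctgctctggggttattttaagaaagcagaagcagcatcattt
Cd22, chr7:30878979-30879278, minus strand: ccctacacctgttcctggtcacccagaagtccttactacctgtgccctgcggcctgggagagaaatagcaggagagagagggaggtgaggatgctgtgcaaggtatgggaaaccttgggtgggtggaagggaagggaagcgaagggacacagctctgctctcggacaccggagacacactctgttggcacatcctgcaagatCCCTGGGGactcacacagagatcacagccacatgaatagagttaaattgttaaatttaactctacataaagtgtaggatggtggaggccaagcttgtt
2 motifs were searched on both strands. The octamer ATGCAAAT, bound by Oct factors in immunoglobulin promoters, was in none of the 5 windows and in 1.74% of all 32851 RefSeq windows. The core CCCNNGGG, bound by the early B cell factor Ebf1 and its own reverse complement, was in 13.7% of all windows and, of the 5, only in that of Cd22, starting 48 bases before the start site. The match overlaps no other, and it is a description of letters, not of binding. Only exact matches were searched, so a window without a match may still hold a binding site with other letters.

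Across all animals tumour and peritumour tissue held similar amounts of the 2 signalling chains of the B cell receptor. Cd79a (gene ID 12518, chr7:24897511-24902197, GRCm38 as in the deposited table, also for the coordinates below) had 4 to 57 reads per tumour library with a median of 13.5, and 5 to 71 with a median of 15.0 in peritumour tissue. The 2 tissues overlapped over nearly their whole range, and Cd79a was higher in the tumour in 7 of 14 pairs, counted here and below on TMM-scaled values, the library scaling of the fit. Its mean was 1.12 ± 0.842 CPM (SD, n = 14) in tumour and 1.21 ± 1.10 in peritumour tissue, and edgeR's quasi-likelihood test gave a log2 fold change of -0.05 ± 0.33 (SE, adjusted p = 0.946). The 95% interval ran from -0.73 to 0.62. Cd79b (gene ID 15985, chr11:106311341-106314562) had 1 to 50 reads in tumours (median 17.5) and 6 to 45 in peritumour tissue (median 16). It too was higher in 7 of 14 tumours, with a log2 fold change of -0.02 ± 0.25 (SE, adjusted p = 0.974, interval -0.54 to 0.50). In bulk tissue, fewer cells of a type and less RNA per cell cannot be told apart, here and for every gene below.

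**Figure D1:**
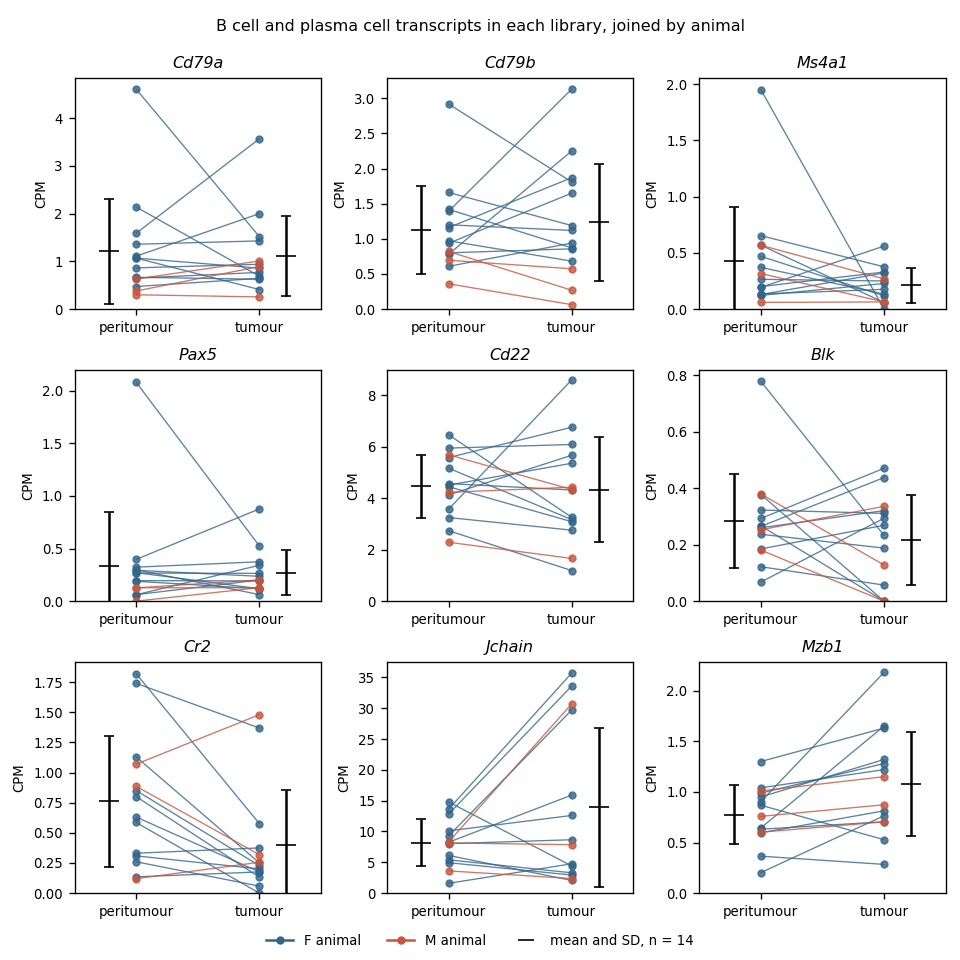
Level of each of the 9 transcripts in counts per 1000000 (CPM, y axes, linear and differing between panels) in peritumour and tumour tissue. Each line joins the 2 libraries of 1 animal (blue F, red M), and the black bars are the mean and SD of 14 libraries; lines cross in most panels, Cr2 lines mostly descend (10 of 14), Mzb1 lines mostly ascend (12 of 14 in CPM), and 4 tumours lie far above the rest for Jchain.

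Among the other surface proteins, Cr2 had the largest difference between the tissues among the 6 genes tested. Cr2 (gene ID 12902, chr1:195135743-195177190) encodes the complement receptors CR2 and CR1 in the mouse, which mature B cells and follicular dendritic cells carry. Its reads in tumours ran from 0 to 22 with a median of 4.0, and in peritumour tissue from 2 to 28 with a median of 11.0. The groups overlapped, but the tumour was lower in 10 of 14 pairs, and the mean was 0.400 ± 0.456 CPM (SD, n = 14) in tumour against 0.762 ± 0.543 in peritumour tissue. The largest gaps in reads were F2, with 9 in the tumour and 28 beside it, and F9, with 4 and 19. In the other direction M1 had 22 and 17 reads. Without the animal as a block the log2 fold change was -1.07 ± 0.42 (SE, adjusted p = 0.166), and with it -1.14 ± 0.36 (SE, adjusted p = 0.0497). Cr2 was thus lower by a similar amount in both edgeR fits but passed the adjusted threshold in the paired fit alone. That call rests on thin margins: leaving out 1 pair at a time gave values of -1.32 to -0.99 with adjusted p from 0.0336 to 0.103, and the call was lost in 12 of the 14 cases. In the 11 F animals the paired log2 fold change of Cr2 was -1.46 ± 0.39 (SE, adjusted p = 0.0289), lower in 9 of 11 tumours. This call was lost in 4 cases, each leaving out 1 of the 11 F pairs, up to an adjusted p of 0.067. Leaving out an M pair takes away no F library and left the value at -1.46, so those cases hardly bear on it.

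Cr2 had 15 transcripts in the authors' annotation, recorded on the plus strand, whereas its RefSeq promoter lies on the minus strand. The sources used here do not give how strand was handled, and reads from antisense or overlapping transcripts may be counted in, which was not tested. The same holds for Cd22 (gene ID 12483, chr7:30831203-30884990), with 16 transcripts on a span that runs past the RefSeq gene (30865404 to 30880342) on both sides, and for Pax5 (gene ID 18507, chr4:44524757-44710440), with 8 transcripts.

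Cd22, which dampens B cell receptor signalling by recruiting phosphatases, had 18 to 134 reads in tumours (median 67.0) and 38 to 109 in peritumour tissue (median 70.5), with wholly overlapping groups. Its log2 fold change was -0.11 ± 0.20 (SE, adjusted p = 0.804, interval -0.51 to 0.30). Ms4a1 (gene ID 12482, chr19:11250603-11266151) had 0 to 9 reads in tumours and 1 to 30 beside them, with medians of 3.5 and 4.5. In a fit without the expression filter its log2 fold change was -0.99 ± 0.46 (SE, adjusted p = 0.269). Its single high library, F5 peritumour with 30 reads, was paired with the single tumour without any Ms4a1 read, a count of 0 that allows up to 3 reads, or 0.171 to 0.203 CPM over these libraries. This limit covers counting error only.

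The intracellular members Blk and Pax5 gave single-digit counts in nearly all libraries. Blk (gene ID 12143, chr14:63372837-63417187) had 0 to 8 reads in tumours, with 3 tumours at 0, and 1 to 12 in peritumour tissue. Both medians were 4.0. Pax5 had 1 to 14 reads in tumours (median 3.0) and 0 to 32 in peritumour tissue (median 3.5). Without the filter the log2 fold changes were -0.44 ± 0.42 (SE, adjusted p = 0.592) for Blk and -0.19 ± 0.45 (SE, adjusted p = 0.855) for Pax5, differences not detectable at this depth.

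The secretory plasma cell gene Jchain ranged widely from tumour to tumour. Jchain (gene ID 16069, chr5:88519809-88527897) had 35 to 613 reads in tumours with a median of 123.0, and 24 to 222 in peritumour tissue with a median of 130.0. The tumours F5 (613 reads), F3 (539), F7 (505) and M2 (481) lay far above every peritumour library, while the tumours F11 (35), M3 (37) and F8 (50) were among the lowest. The index of dispersion of tumour reads, their scatter about the counts expected from library totals, was 194, against 27.0 in peritumour tissue. This index grows with the level of a gene, and the means were 13.9 ± 12.8 CPM (SD, n = 14) and 8.21 ± 3.79. Jchain was higher in 7 tumours and lower in 7. Its log2 fold change was 0.71 ± 0.39 (SE, adjusted p = 0.325) without the block and 0.28 ± 0.29 (SE, adjusted p = 0.566) with it.

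Mzb1 (gene ID 69816, chr18:35647265-35649997), a chaperone of the endoplasmic reticulum that helps immunoglobulin assembly in plasma cells and marginal zone B cells, had 5 to 35 reads in tumours (median 15.5) and 3 to 20 beside them (median 12.5). It was higher in the tumour in 11 of 14 pairs, and in 12 in unscaled CPM, by small steps in most. The log2 fold change was 0.43 ± 0.25 (SE, adjusted p = 0.345), and 0.39 ± 0.20 (SE, adjusted p = 0.213) with the animal block. Jchain and Mzb1 followed each other among the 14 tumours (Pearson's r = 0.75, adjusted p = 0.0023; Spearman's rho = 0.78, adjusted p = 0.0030; permutation tests, 2 relations). Without the 2 tumours farthest from the Jchain median r was 0.66, and within the code styles, described below, it was 0.80 and 0.74. In peritumour tissue r was 0.47 (adjusted p = 0.094) and rho 0.64 (adjusted p = 0.016, permutation tests). This relation was examined after the values had been seen.

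Counted together, 0 of the 6 tested genes passed an adjusted p of 0.05 by edgeR between tumour and peritumour tissue, where 1.05% of all 14117 tested genes did. At an unadjusted p under 0.05 there was 1, Cr2, beside 18.9% of all genes, and DESeq2 also gave 0. With the animal block 1 of 6 passed, Cr2, beside 11.5% of all genes, so the count of calls is near the background. The median log2 fold change of the 6 was -0.04 without and -0.06 with the block, beside 0.01 and -0.01 over all tested genes. Leaving out F2, F5 and F6, the pairs named in earlier results of these data for blood precursor transcripts, the paired Cr2 value was -1.08 ± 0.40 (SE, adjusted p = 0.0753), and 0 of 6 passed.

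**Figure D2:**
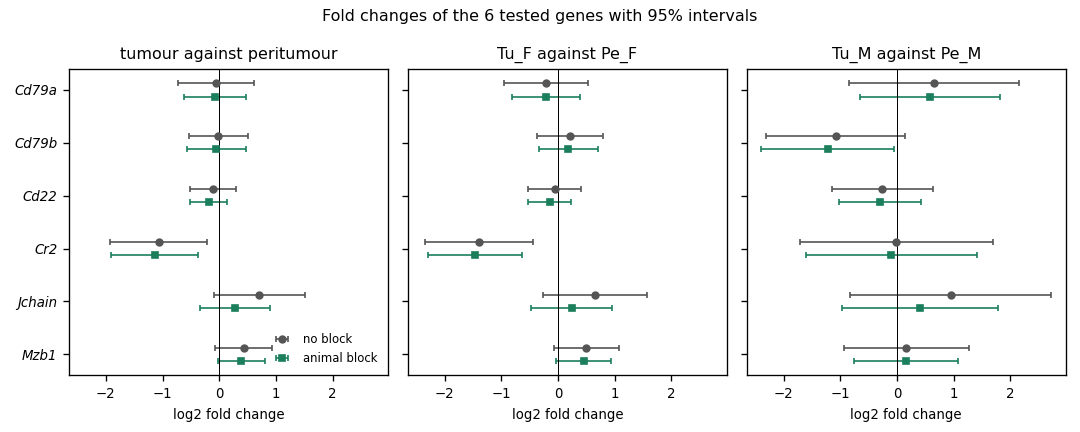
Log2 fold change of tumour over peritumour tissue (x axis) with 95% intervals for the 6 tested genes, in all animals (left), F animals (middle) and M animals (right), without (grey circles) and with the animal as a block (green squares). The interval of Cr2 lies below 0 in all animals (-1.91 to -0.38 with the block) and in F animals, that of Cd79b lies below 0 in M animals with the block, and those of Cd79a and Cd22 include 0 in each panel.

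The letters F and M were compared next; every M library has the first of 2 styles of sample code, a possible batch that was a covariate in the fits. The first style covers 12 libraries (6 animals) and the second 16 (8 animals). Cd79b was the member that differed most. Its reads in the 3 M tumours were 4, 9 and 1, below the lowest F tumour at 12, and beside them 13, 11 and 6 in M peritumour tissue. The mean was 0.302 ± 0.257 CPM (SD, n = 3) in Tu_M and 1.49 ± 0.741 (SD, n = 11) in Tu_F. The groups did not overlap in CPM, every M tumour lying below every F tumour, as held for 1 of the 6 tested members and 0.404% of all tested genes. The edgeR test gave a log2 fold change of -2.06 ± 0.55 (SE, p = 0.000958, adjusted p = 0.35), which did not pass. Its partner chain Cd79a had 15, 14 and 4 reads in the same M tumours, within the F range of 7 to 57 but for the last, with a log2 fold change of -0.35 ± 0.64 (SE, adjusted p = 0.909).

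Within M animals Cd79b was lower in the tumour in 3 of 3 pairs, with a paired log2 fold change of -1.22 ± 0.55 (SE, p = 0.0407, adjusted p = 0.509), and within F animals it was 0.18 ± 0.24 (SE, adjusted p = 0.666). The difference of these effects was -1.41 ± 0.60 (SE, p = 0.0324, adjusted p = 0.688), so it was not shown that M and F differ. By edgeR 0 of 6 members passed in Tu_M against Pe_M with or without the block (0% of all genes), in Tu_M against Tu_F (0.0283%), in Pe_M against Pe_F (0.0283%) and in the difference of the effects (0%). Without the block 0, 1, 0 and 0 of the 6 had an unadjusted p under 0.05 in these comparisons, beside 4.07%, 9.84%, 1.52% and 3% of all genes, the 1 being Cd79b, and DESeq2 called 0 in each. In Tu_F against Pe_F 0 of 6 passed without the block (0.312% of all genes; 1 at an unadjusted p under 0.05, beside 17.5%; DESeq2 0) and Cr2 alone with it (9.84%). In peritumour tissue Cd79a was 10, 6 and 5 reads in M and 7 to 71 in F animals, with a log2 fold change of -1.22 ± 0.68 (SE, adjusted p = 1), and the groups overlapped.

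The libraries differed in what accompanied Cd79a. In the peritumour library of F5, Cd79a reached 71 reads, Cd79b 45, Pax5 32, Ms4a1 30 and Blk 12, the highest peritumour value of each. The same library held 42 reads of Rag1, which encodes a subunit of the recombinase that cuts immunoglobulin genes in developing lymphocytes, and 19 of Vpreb3, a gene of B cell precursors. The tumour of F6 had 57 reads of Cd79a, 50 of Cd79b and 14 of Pax5, the highest tumour values, with 23 of Rag1 and 18 of Vpreb3. Its Ms4a1, a gene that comes on late in B cell development, was at 4 reads, and its Jchain at 76. Other listed precursor genes were scarce in every library: Igll1 had at most 3 reads, Vpreb1 at most 5, and Vpreb2 and Rag2 3 or fewer. Rag1 was at 0 in 14 of the 28 libraries, and its next highest count was 6 in the tumour of F5. Elane, a granulocyte precursor gene, was also high in these libraries, with 234 reads in F5 peritumour tissue and 231 in the F6 tumour (median of all 28 libraries 23.5). Elane was also high without Rag1: the tumour of F4 had 156 reads of Elane with 14 of Cd79a and 0 of Rag1, and F2 peritumour tissue had 318 with 10 and 0. Cr2 did not follow, with 4 reads in F5 peritumour tissue and 6 in the F6 tumour. The part of the precursor transcripts in any difference between the tissues was not tested.

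**Figure D3:**
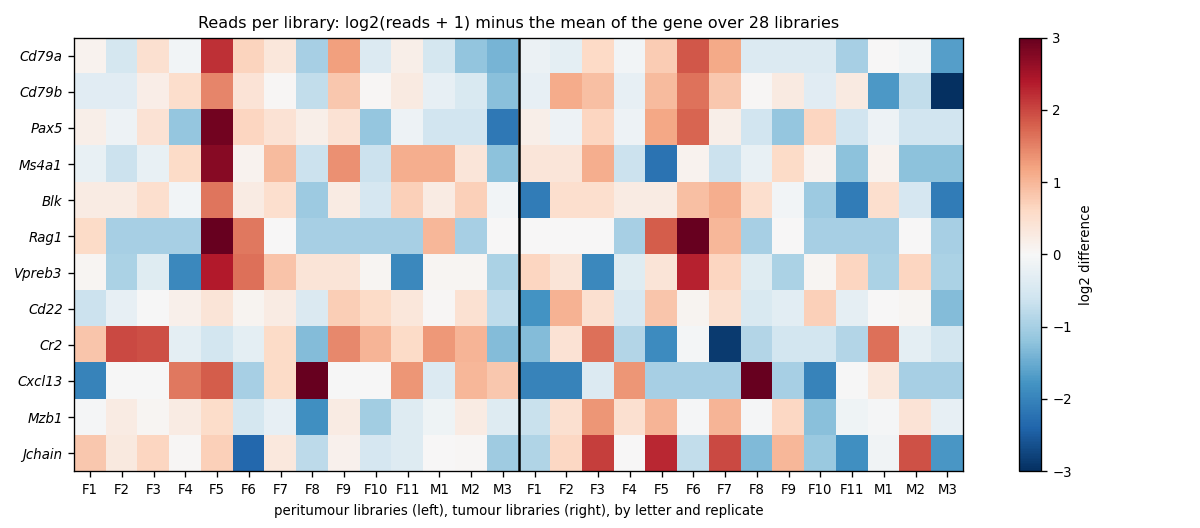
Reads of the 9 transcripts and of Rag1, Vpreb3 and Cxcl13 in each library, as log2(reads + 1) minus the mean of the gene over 28 libraries (colour, red high, blue low), with peritumour libraries left of the line and tumours right of it. The F5 peritumour column and the F6 tumour column are red in the rows of Cd79a, Cd79b, Pax5, Blk, Rag1 and Vpreb3, while Cr2, Cxcl13 and Jchain follow other columns.

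Across the 14 peritumour libraries Cd79a and Cd79b rose and fell together, with Pearson's r = 0.92 (adjusted p = 0.00032) and Spearman's rho = 0.88 (adjusted p = 0.0014, permutation tests over 16 relations of Cd79a with other members). The value stayed at 0.86 without the 2 libraries farthest from the Cd79a median and was 0.86 and 0.91 within the 2 code styles. In tumours r was 0.64 (adjusted p = 0.043) and rho 0.46 (adjusted p = 0.20, permutation tests). There r was 0.13 without the 2 farthest tumours, so the pooled r depends on those, and 0.56 and 0.81 within the code styles with them kept. Pax5 followed Cd79a with r = 0.83 (adjusted p = 0.0034) and rho = 0.68 (adjusted p = 0.070) in peritumour tissue, and with r = 0.72 (adjusted p = 0.016) and rho = 0.58 (adjusted p = 0.096) in tumours, by permutation tests. Without the 2 farthest libraries these r were 0.68 and 0.50, and within the code styles 0.89 and 0.80 in peritumour tissue and 0.65 and 0.73 in tumours.

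Blk followed Cd79a in tumours (r = 0.69, adjusted p = 0.016; rho = 0.65, adjusted p = 0.070; r = 0.54 without the 2 farthest, 0.57 and 0.73 within the styles; permutation tests). Ms4a1 did so in peritumour tissue (r = 0.73, adjusted p = 0.016; rho = 0.57, adjusted p = 0.096; permutation tests), but r was 0.05 within the first code style and 0.88 within the second. For Cd22 r with Cd79a was 0.38 (adjusted p = 0.33; rho = 0.42, adjusted p = 0.21) in peritumour tissue and 0.30 (adjusted p = 0.38; rho = 0.24, adjusted p = 0.47) in tumours, by permutation tests. Cr2 showed no such relation over all animals, with r = -0.03 (adjusted p = 0.93; rho = 0.09, adjusted p = 0.81) in peritumour tissue and -0.07 (adjusted p = 0.86; rho = -0.07, adjusted p = 0.81) in tumours by permutation tests. Its r was 0.59 and 0.53 within the first code style, and -0.01 and -0.19 within the second, in the same order. For Jchain r with Cd79a was 0.18 (adjusted p = 0.65; rho = 0.37, adjusted p = 0.29) and 0.41 (adjusted p = 0.29; rho = 0.61, adjusted p = 0.094) in the same order, by permutation tests. Without the 2 farthest libraries these r were 0.04 and 0.69. Within the first code style they were 0.84 and 0.69, and within the second 0.23 and 0.34. In all, 6 of the 16 relations passed by r and 1 by rho.

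**Figure D4:**
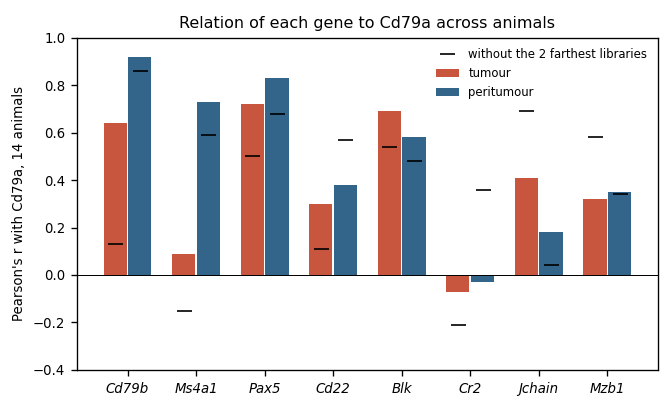
Pearson's r between log2 CPM of Cd79a and each of the other 8 genes across 14 animals (y axis), in tumours (red bars) and peritumour tissue (blue bars), with short black lines for r after leaving out the 2 libraries farthest from the Cd79a median. Cd79b in peritumour tissue has the highest bar (0.92) and keeps it without those libraries (0.86), whereas in tumours it drops from 0.64 to 0.13, and the bars of Cr2 lie near 0.

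No member showed a relation between the tumour and the peritumour tissue of the same animal that passed adjustment. Over 9 such relations the highest r was that of Cd79b at 0.65 (adjusted p = 0.11; rho = 0.52, adjusted p = 0.13, permutation tests), with 0.48 without the 2 farthest animals and 0.79 and 0.33 within the code styles. Cd79a was also set against genes of other cells, among them Cd3e (T cells), Siglech (plasmacytoid dendritic cells) and Clec4f (Kupffer cells), 8 relations of which 0 passed by r or rho. The largest over all animals was Siglech in tumours (r = 0.54, adjusted p = 0.36; rho = 0.65, adjusted p = 0.11, permutation tests). For Siglech r was 0.35 without the 2 farthest tumours, and 0.97 and 0.42 within the code styles. In peritumour tissue its r was 0.15 over all animals, and 0.98 and 0.38 within the styles. The first style covers 6 animals.

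As a description over all 28 libraries, after the mean of each tissue and code style was taken out, the 10 tested genes most like Cd79a in log2 CPM included Chst3 (r = 0.77), Kcnk16 (0.75), Hsd3b1 (0.74), Siglecg (0.74), Comp (0.74), Pou2af1 (0.73), Cep44 (0.72), Tmem169 (0.72) and Fcrla (0.71). Siglecg is an inhibitory lectin of B cells, Pou2af1 a B cell coactivator of octamer promoters and Fcrla an Fc receptor-like protein of B cells. Cd79b came at rank 29 (r = 0.66), Mzb1 at 624, Jchain at 869, Cd22 at 3794 and Cr2 at 3896. The points share libraries, depth and low counts, with a mean of 1.16 CPM for Cd79a itself.

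Few genes of the wider B cell lists passed. Without the block 0 members of any list passed by edgeR, and with it the following did, where 5.59% of all genes rose and 5.91% fell. Of 17 tested genes of B cell receptor signalling 1 fell, Lyn, a Src family kinase of the receptor, with a log2 fold change of -0.26 ± 0.08 (SE, adjusted p = 0.0424). The most abundant of this list, Cd81 and Pik3ap1, had values of -0.07 ± 0.07 and -0.07 ± 0.14 (SE). None of 13 B lineage surface genes passed, where Ly86, Cd180 and Cd86, which myeloid cells also express, had values of -0.35 ± 0.18, -0.34 ± 0.13 and -0.42 ± 0.17 (SE). Of 12 B lineage transcription factors 1 rose, Tcf3, an E protein with many roles outside B cells (0.41 ± 0.12, SE, adjusted p = 0.0391), while Foxo1 and Irf8 had values of 0.11 ± 0.08 and -0.06 ± 0.10 (SE). None of 6 tested precursor genes passed, the most abundant being Cd93, Sox4 and Erg, which endothelial and other cells express too, with values of 0.23 ± 0.10, 0.04 ± 0.37 and -0.21 ± 0.13 (SE).

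Among 15 plasma cell genes 2 rose and 0 fell. Fkbp11, a folding enzyme of secretory cells, had 121 ± 49.7 CPM in tumour and 80.4 ± 32.9 in peritumour tissue (SD, n = 14), a log2 fold change of 0.51 ± 0.13 (SE, adjusted p = 0.0206), higher in 12 of 14 pairs. Pim2, a survival kinase, rose by 0.36 ± 0.11 (SE, adjusted p = 0.0477). Hepatocytes express several of these genes: Txndc5, Sdc1 and Xbp1 had mean levels of 353, 191 and 182 CPM, far above Jchain at 11.1, and log2 fold changes of -0.05 ± 0.10, -0.17 ± 0.12 and -0.08 ± 0.09 (SE). Prdm1 and Irf4, the regulators of plasma cell fate, had values of -0.04 ± 0.17 and -0.13 ± 0.28 (SE).

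Of 14 tested genes for attracting and keeping B cells, 4 were lower and 0 higher in the paired fit. The median of the list was -0.41 beside -0.01 over all genes, with 6 positive and 8 negative values. Cxcl13, the chemokine that draws B cells into follicles, had 0 to 33 reads in tumours (median 1.0) and 0 to 66 in peritumour tissue (median 4.0), with fewer reads in 11 tumours, as many in 2 and more in 1. F8 had by far the most in both tissues, 33 and 66, and the groups overlapped. The log2 fold change of Cxcl13 was -1.49 ± 0.41 (SE, adjusted p = 0.0278). Cxcl12, the ligand of Cxcr4, fell by 0.48 ± 0.09 on the log2 scale (SE, adjusted p = 0.00435), with 197 ± 47.9 CPM in tumour and 269 ± 77.0 in peritumour tissue (SD, n = 14). S1pr1, a receptor for egress from tissue that endothelium also carries, fell by 0.36 ± 0.10 (SE, adjusted p = 0.0248), and Pigr fell by 0.68 ± 0.21 (SE, adjusted p = 0.0469). Ltbr had a value of 0.05 ± 0.09, and the survival factor Tnfsf13b, known as BAFF, one of -0.80 ± 0.28 (SE, adjusted p = 0.0697). Tnfsf13 of the same list went the other way in the edgeR fit without the block. There it had 0.90 ± 0.31 (SE, adjusted p = 0.113), beside -0.87 ± 0.30 (SE, adjusted p = 0.114) for Tnfsf13b. Both genes were named after their values were seen.

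Markers of other cells moved in the same paired fit. Kupffer cell genes fell in 5 of 7 cases, Clec4f by 0.93 ± 0.20, Vsig4 by 0.97 ± 0.18, Timd4 by 1.09 ± 0.27, Marco by 0.82 ± 0.24 and Folr2 by 0.84 ± 0.22 on the log2 scale (SE), and their summed level was 99.5 to 628 CPM in tumours and 138 to 579 in peritumour tissue. Of the follicular dendritic cell list 1 of 3 fell, Cxcl13 itself; the list summed to 0.251 to 21.4 CPM in tumours and 0.356 to 5.14 in peritumour tissue, and the highest value came with 320 reads of Madcam1 in the F2 tumour. Of 7 tested genes listed for plasmacytoid dendritic cells 1 fell, Ly6d, by 1.26 ± 0.25 (SE, adjusted p = 0.00633), with sums of 195 to 733 and 251 to 849 CPM. The most abundant of that list were Bst2, Irf7 and Ly6d, at mean levels of 244, 93.9 and 39.2 CPM. Siglech had a mean of 0.629 CPM and so adds little to the sums. None of 9 T cell, 8 erythroid or 8 granulocyte precursor genes passed; their sums were 6.34 to 47.0, 9.67 to 200.9 and 5.70 to 393 CPM in tumours, and 8.85 to 26.3, 13.2 to 192 and 6.43 to 430 CPM in peritumour tissue. Of the hepatocyte genes 3 of 7 fell (Alb, Hpd and Tat), with sums of 18900 to 45900 and 16000 to 56200 CPM, and of 6 genes of lymph vessels and lymph node stroma 1 fell, Prox1, which hepatocytes express too, with sums of 108 to 292 and 145 to 308 CPM. The most abundant markers of these lists that did not pass had log2 fold changes of 0.19 ± 0.21 (Cd4), -0.14 ± 0.23 (Lck) and -0.03 ± 0.18 (Cd8a) for T cells, and of -0.40 ± 0.20 (Alas2) and 0.36 ± 0.56 (Slc4a1) for erythroid precursors (SE). For granulocyte precursors they were 0.16 ± 0.39 (Ngp), -0.05 ± 0.41 (Ltf) and 0.06 ± 0.40 (Mpo), and for plasmacytoid dendritic cells -0.03 ± 0.08 (Bst2) and -0.36 ± 0.13 (Irf7). Fcamr and Madcam1 had values of 0.02 ± 0.64 and 1.72 ± 0.79, Cd5l -0.33 ± 0.16, Apoa1 0.24 ± 0.17, Serpina1a -0.20 ± 0.13, Enpp2 0.33 ± 0.19 and Lyve1 -0.44 ± 0.16 (SE). No listed marker was at 0 in every library. Their part in the values of Cr2 and Cxcl13 was not tested.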

How the data were processed

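RNA from 14 tumour and 14 peritumour samples was sequenced by the authors after oligo(dT) selection and random priming, per the labels' protocols. Tools named per the submitters' processing notes, with no role stated, are RSEM 1.2.12, HISAT2 2.0.4, DESeq2 1.4.5 and Bowtie2 2.2.5. The authors' deposited table holds estimated counts, TPM and FPKM per gene and library, per the file headers; FPKM was not used in a test. Counts were rounded (8.06% were not whole within 0.001) and divided by their library total for CPM.

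edgeR 4.0.16 in R 4.3.3 was used with TMM factors (0.809 to 1.36), filterByExpr (14117 genes left), a robust quasi-likelihood fit, and p-values adjusted by Benjamini-Hochberg over all tested genes. Tumour was compared with peritumour tissue with code style and letter as covariates; the 4 groups were contrasted in a fit with code style as covariate. Sample codes pair the tissues: over genes, deviations from group means correlated within each of the 14 pairs (0.133 to 0.608, median of other pairs -0.013). By this measure 10 of the 14 tumours were closest to the peritumour library of their own code. The biological coefficient of variation was 0.381 without and 0.27 with the animal as a block. Paired values stand beside the others where they change a call or a size. P-values of the paired fits and of the relations measure the spread between animals as far as codes mark animals. Those of the fits without the block ignore the pairing and take both libraries of an animal as independent. Relations used log2 CPM (prior count 2), 100000 permutations, two-sided. The members and lists were chosen with earlier results of these data known. Named are the 9 members, list genes past the threshold, the 3 most abundant of each list, and the 10 genes most like Cd79a; some genes that this rule names are not reported here. Alternatives were DESeq2 1.42.0, other scalings, no filter, no code style, each code style, and leaving out animals.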

Additional observations from a re-analysis of the deposited data

How the results depend on the processing

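Member calls without the block did not depend on the settings tried: of 766 alternative values for 36 member results, 764 stayed short of the threshold, the 2 exceptions being Cr2 with the replicate block (-1.14 in all animals and -1.46 in F), and 39 uncalled values changed sign. The paired Cr2 call was lost with library size alone (adjusted p = 0.0553), DESeq2 size factors (0.0501) and no filter (0.0658); DESeq2 kept it (0.0232), while the first code style alone gave -0.83 ± 0.51 (SE, adjusted p = 0.653) and in the second Cr2 did not pass the filter. In F animals the paired fit gave adjusted p from 0.00923 to 0.067 over its alternatives, and the first code style alone gave -1.46 ± 0.63 (SE, adjusted p = 0.564). These settings and the Jchain with Mzb1 relation were added after seeing the data.

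Counts of all genes past the threshold moved more. For tumour against peritumour (148) they were 64 without filter, 622 with DESeq2, 1624 with the replicate block (789 higher and 835 lower; 1151 and 677 with library size alone), 455 without F pairs 2, 5 and 6, 0 and 981 in the first and second code style with the block, and 0 to 246 leaving out 1 pair. For Tu_F against Pe_F (44) they were 24 with library size alone, 10 without filter, 546 with DESeq2, 9 without code style, 1389 with the replicate block, 13 without pairs 2, 5 and 6, 0 and 981 by code style, and 0 to 75 leaving out 1 pair. DESeq2 gave 3 for Tu_M against Pe_M (edgeR 0; 574 at an unadjusted p under 0.05) and, with the replicate block, 99 (15 higher and 84 lower; edgeR 0), 66 for Tu_M against Tu_F (4; 7 without code style and 7 without pairs 2, 5 and 6) and 1 for the tumour effect in M against F (0; 423 unadjusted). With library size alone 2 instead of 1 of the Jchain with Mzb1 relations passed. Alternatives were not run for genes of the wider lists. The causes were not tested. Depth limits Ms4a1, Pax5, Blk and Cr2, at medians of 3.0 to 11.0 reads.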
